A study of Mus musculus with 8 samples.

Results

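A male mouse kidney sample taken after 3 weeks of drinking lead acetate at 100 mg/L was compared with a male mouse kidney sample taken after distilled water. The comparison used the 2 arrays that the labels name as low-dose kidney and control kidney, out of 8 arrays in the series, and was described across genes. A gene counted as measured if the probe that reports it was above background by the scanner's test and unsaturated on each of these arrays, which held for 20949 of 37325 gene names (56.1%). The series asked how lead exposure alters gene expression, with transporter genes as its stated subject, in brain, kidney and liver. Another kidney array came from the high dose of 1000 mg/L, and brain had an array at each of the same 3 doses. The labels give 1 sample per group, state no strain, age or number of animals, and describe small tissue pieces, so that which part of the kidney was taken, and what lay against it, is not known. With 1 array a side the spread between animals is unknown, so differences are given as sizes without p-values.

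The kidney concentrates divalent metals in its proximal tubule, where metallothioneins, small cysteine-rich proteins, bind them in the cell. Lead enters cells on carriers whose usual cargo is iron, calcium or zinc, and it inhibits enzymes that hold zinc, among them the heme synthesis enzyme encoded by Alad. A piece of kidney also holds neighbours of the tubule: the urothelium that lines the pelvis, the fat around the hilum, and at the upper pole the adrenal gland, whose cortex makes steroid hormones and whose medulla holds chromaffin cells.

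The tissue label was borne out by the genes that define kidney. All 10 kidney genes checked were well above background on both arrays, with a median level of 4.79 in the control and 4.82 at the low dose. Levels are log2 signals minus the array's 75th percentile, and differences are low dose minus control on that log2 scale. Umod, the urinary mucin of the thick ascending limb, was at 7.52 in the control and 7.60 at the low dose, and Slc34a1, the phosphate carrier of the proximal tubule, at 6.06 and 5.99. The 10 genes differed by -0.07 to 0.14. Of 10 brain genes 8 and 7 were well above background on these arrays, with median levels of -2.82 and -3.18, and of 10 liver genes 7 and 7, with medians of -2.12 and -2.39. Spots well above background made up 61.0% of the control array and 58.5% of the low-dose array.

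Most genes differed little. The median difference was -0.01, the quartiles were -0.10 and 0.08, and 47.8% were above control. A difference counted as past the size rule when it was at least 1 in size, a 2-fold change, and more than 3 times its array error, the combined error that the scanner software gives both spots (median 0.21). The rule passed 103 genes, 0.492% of those measured. Of these 46 were higher at the low dose (0.220%) and 57 lower (0.272%), and 8 differed by 2 or more. The high-dose kidney array set against the same control array passed 354 of 21354 genes (1.66%), and in brain the low dose passed 169 of 22691 (0.745%). Both kidney doses share 1 control array, so their values are set side by side below and not counted as separate evidence. The high-dose array lay nearer the low-dose array than the control in 50 of the 57 lower genes and 16 of the 46 higher. It lay on the other side of control in 5 and 12 of them. A control array at one end of the 3 is thus common among genes past the rule. Genes just inside the rule were Insc, Isoc2b and Wdr38, each at -1.02. Just outside were the growth arrest gene Gadd45g at -0.99 and the protamine gene Prm2 at -0.98, while Nrip3 at 1.03 was left out for its array error of 0.35.

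The size of a difference went with how bright the gene was. When the measured genes were divided by mean level into 3 equal parts of 6983, the dimmest held 92 of the 103 genes (1.32% of that part), the middle 11 (0.158%) and the brightest 0. The SD of the difference was 0.33, 0.17 and 0.10 from the dimmest to the brightest part. The largest difference among bright genes was therefore below the rule, and that of Gadd45g, from 5.35 to 4.35, was the nearest to it. Of the 103 genes, 45 carry a clone, gene model or lincRNA name (43.7%, against 31.8% of the measured genes), which left 27 named genes higher and 31 lower.

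**Figure D1:**
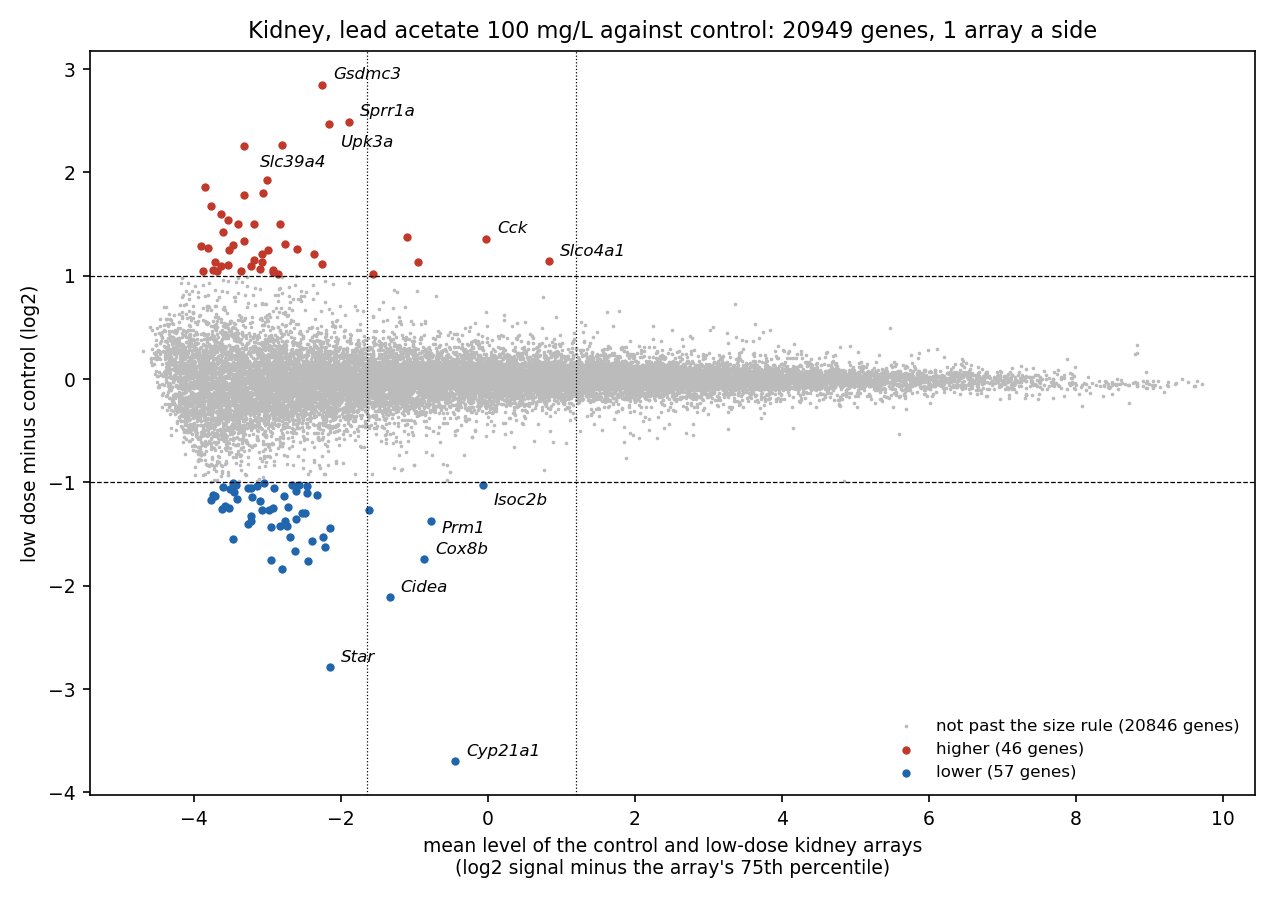
Difference between the low-dose and control kidney arrays (log2, vertical axis) against the mean level of both (log2 signal minus the array's 75th percentile, horizontal axis), 1 point per gene, with the size rule's limits at -1 and 1 dashed and the 3 equal parts by level divided by dotted lines. The 46 higher (red) and 57 lower (blue) genes lie in the dim and middle parts, and none of the brightest 6983 genes passes the rule.

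The named genes furthest above control were genes of lining epithelia. Gsdmc3, a gasdermin of the family of pore-forming proteins, was at -3.68 on the control array, -0.83 at 100 mg/L and -0.38 at 1000 mg/L. Its difference of 2.85 is a 7.22-fold change (array error 0.25). Sprr1a, a cross-linked protein of squamous epithelium that is also made under injury, was at -3.13, -0.65 and -0.23 on the same arrays, a difference of 2.49 or 5.60-fold (array error 0.24). Upk3a, a subunit of the uroplakin plaques that cover the surface of the urothelium, was at -3.39, -0.92 and -1.09, a difference of 2.47 or 5.54-fold (array error 0.25). In each of the 3 genes the control array was the low one, which for the low dose follows from how the genes were chosen. The arrays of both doses lay within 0.5 of each other.

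The first 30 bases of the array probes that read these genes are shown, since each value rests on 1 probe of this kind. They map, in mm9 as the array files give it, to chr15:63689307-63689366 (Gsdmc3, minus strand), chr3:92287955-92288014 (Sprr1a, minus strand) and chr15:84851819-84852720 (Upk3a, plus strand, where the span is longer than the 60-base probe). No base is marked in them.
Gsdmc3: ccttaccacgtctaggaaacaggatgttgt
Sprr1a: gctcctgagcctcttaacattgcccaaagt
Upk3a: gctttgtggacatgggcagttctgatgggg

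Of 20 urothelium genes 12 were measured. Of these 5 were higher (41.7%, against 0.220% of all genes) and 0 lower. In the dimmest part of all measured genes 1.32% passed the rule in either direction. The list's median difference was 0.37 against -0.01 over all genes. The other higher members were Upk1a, a tetraspanin of the same plaques, at -1.51, -0.39 and -0.69 (control, low and high dose), a difference of 1.13, the keratin Krt19 at -2.81, -1.70 and -1.65, a difference of 1.11, and the basal keratin Krt5 at -3.44, -2.40 and -2.41, a difference of 1.04. All 5 had the control array as the lowest of the 3. That it lay below the low dose follows from how they were chosen. Among all 46 higher genes the high-dose array lay below control in 12. With normexp background correction and quantile normalization, another way to treat the background, Upk1a, Krt19 and Krt5 fall below the rule's size (0.92, 0.75 and 0.54). This setting adds an offset of 50 to every signal, which by construction shrinks differences between dim signals. A further 3 members were well above background at the low dose and not in the control, so that only a bound can be given. Upk2, which pairs with Upk1a in the plaques, was at least 3.67-fold higher (levels -5.62 and -2.97), Psca, a surface antigen of the urothelium, at least 3.29-fold (-5.05 and -3.13) and Upk1b at least 2.60-fold (-4.57 and -3.19). These bounds take the lowest signal that was well above background on the dim array, or the dim probe's own where that is higher, as the dim level.

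Other urothelium genes showed no such difference. Krt7 was at 0.91 and 0.85, the transcription factors Pparg at -0.39 and -0.53 and Gata3 at 1.41 and 1.64, and Krt14 at -3.85 and -3.60. Across the whole list 12 of 20 genes were well above background in the control, 15 at the low and 16 at the high dose, and the median level was -3.64, -2.69 and -2.29. The members past the rule are among the dim ones: the list's median difference of 0.37 is -0.02 with a stricter filter on dim probes and 1.07 with dim probes kept. Of 22 genes of squamous epithelium and the cornified envelope 13 were measured. Sprr1a, which both lists hold, was the only 1 of them past the rule (7.69%, against 0.492% of all genes). The list's median was -0.17 (0.17 with dim probes kept), with Krt16 at 0.15 and -0.02, Krt6a at -0.68 and -0.91 and Sprr2b at 1.53 and 1.34, while Sprr1b and Sprr3 were not well above background on either array. In a piece of tissue, more cells of a type and more RNA per cell cannot be told apart, and how much of the renal pelvis each piece held was not tested.

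The gasdermin C genes lie in a row on chromosome 15 and have closely similar sequences. Gsdmc2 was at -3.98, -2.64 and -2.55, a difference of 1.34, and its probe lies 32.9 kb from that of Gsdmc3 (chr15:63656392-63656451 in mm9). With normexp its difference is 0.67. Gsdmc4 was not well above background in the control (-6.60) and was at -4.44 and -4.20 on the arrays of the low and high doses. The reported probe of Gsdmc was at -2.54, -2.08 and -1.93, a difference of 0.46, while its second probe was at -3.38 in the control and not well above background at either dose. The probes can share transcripts. Over 30 bases the probes of Gsdmc and Gsdmc2 differ at 1 base, which is in capitals.
Gsdmc: gtcctggatacatttgaGatattgcaccat
Gsdmc2: gtcctggatacatttgaTatattgcaccat
The probes of Gsdmc2 and Gsdmc4 differ at 3 bases of 30, and that of Gsdmc3 at 15 or more of 30 from each of the others. The values of Gsdmc, Gsdmc2 and Gsdmc4 are therefore uncertain as to which of these genes they belong.

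The 250 bases upstream of the start of Sprr1a are shown because this gene's promoter is a known target of AP-1, the factor formed by Fos and Jun proteins. They are the first 250 of the 300 bases at chr3:92485832-92486131 on the minus strand (RefSeq, GRCm38.p6), with matches to the AP-1 motif TGANTCA in capitals.
Sprr1a: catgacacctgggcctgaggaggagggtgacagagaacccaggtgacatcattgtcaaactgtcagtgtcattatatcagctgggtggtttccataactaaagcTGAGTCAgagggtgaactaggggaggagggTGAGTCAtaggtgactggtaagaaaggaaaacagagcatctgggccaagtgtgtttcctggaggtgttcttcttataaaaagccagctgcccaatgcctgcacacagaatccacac
The motif reads alike on both strands and was found at 2 places here. At least 1 match stood in 6.75% of 32851 RefSeq promoters of this length and 2 or more in 0.338%. Trem2 had 1 match, and Gsdmc3, Upk3a, Upk1a and Krt5 had 0. Of 22 immediate early genes, the class that encodes Fos and Jun, 18 were measured and 0 passed the rule, with a median difference of -0.10 and Fosb, at -0.88, the farthest from 0.

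Zinc carriers held the largest difference of any transporter gene. Slc39a4, which encodes the importer ZIP4 that takes up dietary zinc in the gut, was at -3.93 in the control, -1.66 at 100 mg/L and -2.59 at 1000 mg/L. The difference was 2.27, or 4.82-fold (array error 0.28). Slc39a2, which encodes the importer ZIP2, was at -2.34, -3.61 and -3.31, a difference of -1.27 (array error 0.28), or -0.64 with normexp. The control array was thus the lowest of 3 for one importer and the highest for the other. The Slc39a4 probe maps to chr15:76442866-76442925 (mm9, minus strand) and begins as follows, with no base marked.
Slc39a4: ctctgctttaccttcttaagccacctaatt
The liver arrays had Slc39a4 at 5.21 and 5.34 (control and high dose), and the brain arrays at -2.53, -2.71 and -3.35, where the low dose differed from control by -0.18.

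These were the only 2 of the 20 measured zinc and manganese carriers past the rule. The other 18 lay between -0.18 and 0.21, and the list's median was -0.01. Slc39a8 and Slc39a14, the importers that also carry cadmium and manganese, were at 1.25 and 1.32 and at 0.56 and 0.46, and Slc30a1, the zinc exporter of the cell membrane, at 1.67 and 1.64. Slc30a1 and the metallothioneins are known targets of the zinc sensor MTF1, and none was past the rule at the low dose. Mt1 was at 5.85, 6.13 and 7.12 on the control, low-dose and high-dose arrays, and Mt2 at 4.14, 4.38 and 5.35. The low-dose differences of 0.28 and 0.24 were close to their array errors of 0.20. Mt3 was at 0.57 and 0.47, Mtf1 at 1.66 and 1.64, and Mt4 was not well above background. The letters TGCNCNC, a loose form of the metal response element core, were sought on either strand in 250 bases upstream. They stood at 5 places for Mt2, 1 for Mt1 and 0 for Slc39a2, and at least once in 44.4% of promoters. These are counts of letters in 1 window per gene and not of working elements, and elements outside the window were not counted.

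Genes of iron, copper and heme handling differed by less than the size rule. Of 18 iron genes 0 passed, their differences ran from -0.16 to 0.15 and their median was -0.02. Slc11a2, which encodes the divalent metal carrier DMT1, was at 0.61 and 0.52, the exporter ferroportin (Slc40a1) at 1.09 and 1.24, and Tfrc, the transferrin receptor, at 0.79 and 0.64. The ferritin genes Fth1 and Ftl1 were at 8.81 and 8.78 and at 8.24 and 8.20. Of 10 copper genes 0 passed (-0.08 to 0.10). Of 15 heme genes 0 passed, with a median of 0.04. Alad, the enzyme that lead inhibits, was at 4.92 and 4.88, and the heme oxygenase Hmox1 at 2.33 and 2.38 against 3.51 at the high dose. The synthases that start the pathway, Alas1 and Alas2, were at 4.77 and 5.08 and at 1.22 and 1.57. The medians of the zinc, iron and copper lists change sign when arrays are scaled on their medians (0.04, 0.03 and 0.04), and are given as values near 0.

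Among genes of vitamin D and renal calcium, 1 of 13 measured passed the rule (7.69%, against 0.492% of all genes). Cyp24a1, the enzyme that breaks down active vitamin D in the tubule, was at -1.47 in the control kidney, -3.00 in the low-dose and -1.08 in the high-dose kidney, a difference of -1.53. Here the low-dose array stood below both others. The enzyme that makes the active form, Cyp27b1, was at -2.00 and -2.02, the vitamin D receptor Vdr at 3.43 and 3.33, and the calcium channel genes Trpv5 and Trpv6 at -3.18 and -3.41 and at -2.71 and -2.98. The calbindin gene Calb1 was at 3.95 and 3.72. The list's median was -0.10 and 1 of 13 genes was above control (7.69%, against 47.8% of all genes).

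Transporter families together held 413 measured genes, of which 2 were higher and 2 lower (0.969%, against 0.492% of all genes), with a median of -0.02. Differences of 0.5 or more were found in 10 of them (2.42%, against 3.79% of all genes). Beside the zinc importers the rule passed Slco4a1, an organic anion carrier that takes up thyroid hormone, and Slc44a5, a choline carrier-like gene (-2.64 and -3.78, a difference of -1.14). Slco4a1 was at 0.26 in the control, 1.40 at the low and 1.64 at the high dose, a difference of 1.14. With normexp Slc44a5 is at -0.58 and Slco4a1 at 1.06. Its other 2 measured probes were at -3.59 and -3.72, and at -2.20 and -2.49, differences of -0.13 and -0.30. The 3 probes do not overlap, and lie in mm9 at chr2:180209483-180209542, chr2:180203003-180203062 and chr2:180198768-180198827. Their first 30 bases follow in that order, to show that they are different sequences, with no base marked.
Slco4a1, reported probe: gcagcttgtgtggacagtgtgtttctatgt
Slco4a1, other probe a: actccatcacctcttttctgtgtgtctgtc
Slco4a1, other probe b: tccctcccgaagcacctctttactagcacg
The call of Slco4a1 therefore rests on the reported probe, and with the mean of the 3 probes the difference is 0.24.

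Just short of the rule was Slc6a12, which carries the osmolyte betaine in the renal medulla, at -2.36, -1.42 and -1.48, a difference of 0.93. The myo-inositol carrier Slc5a3, of the same osmolyte set, was at 1.25, 1.71 and 1.77, a difference of 0.46, and the amino acid carrier Slc38a2 at 1.22, 1.54 and 1.70. The 12 medulla genes had a median of 0.19 and 0 past the rule. Slc7a12 (-0.14 and -0.97), Slc22a26 (-1.39 and -0.54) and Slc29a4 (-3.16 and -3.97) had the next largest differences among carriers. The claudins (17 measured, median 0.04), aquaporins (8, median 0.03) and sodium pump and FXYD genes (13, median 0.11) had 0 past the rule.

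The lower genes were led by genes of steroid synthesis. Cyp21a1, the adrenal 21-hydroxylase, was at 1.41 in the control, -2.29 at the low and -2.00 at the high dose, a difference of -3.70 or 13.0-fold (array error 0.22). Star, which brings cholesterol into mitochondria for steroid synthesis, was at -0.75, -3.54 and -3.51, a difference of -2.79 or 6.94-fold (array error 0.26). Cyp11b1, the enzyme that completes corticosterone, was at -0.73 in the control and not well above background at either dose (-5.95 and -6.15), so that it was at least 14.4-fold lower at the low dose. For all 3 genes the control array stood above both lead arrays, which for the low dose follows from how they were chosen. The lead arrays lay within 0.3 of each other for Cyp21a1 and Star. For Cyp11b1 neither was well above background, so no closeness can be read from its 2 values. The high-dose array lay nearer the low-dose array in 50 of all 57 lower genes, so lead arrays that lie together are not particular to these genes.

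Of 15 adrenal cortex genes 9 were measured. Of these 2 were lower (22.2%, against 0.272% of all genes), 0 higher and 0 above control (against 47.8%). The median difference was -0.22 (-0.66 with the mean of each gene's measured probes, -0.14 with dim probes kept). Akr1b7 was at -0.20, -1.03 and -1.36, Mrap, the accessory protein of the corticotropin receptor, at -1.39, -2.05 and -2.11, and Nr5a1, the factor that switches on steroid genes, at -1.28, -1.51 and -1.49. Hsd3b1 was at -1.48, -1.60 and -2.08. Cyp11a1, which starts steroid synthesis, and Nr0b1 were not well above background on any kidney array, the control included. Well above background were 11, 9 and 9 of the 15 genes on the control, low-dose and high-dose arrays, with median levels of -1.28, -2.29 and -2.11. Of 16 genes of chromaffin cells and sympathetic neurons 12, 7 and 9 were well above background, with median levels of -2.58, -4.45 and -4.16. The 7 of them measured on both arrays had 0 past the rule and 2 above control (28.6%, against 47.8% of all genes). Their median difference was -0.07, with a range of -0.47 to 0.79. Npy, a neuropeptide of sympathetic neurons, was the highest of these at 0.35, 1.15 and 0.59. Chgb and Chga, the granins of chromaffin granules, were at -1.12 and -1.55 in the control and not well above background at the low dose, at least 11.0-fold and 8.18-fold lower, and Chga was at -4.24 at the high dose. Th, which makes the precursor of catecholamines, was at -0.56 and -1.03, and Dbh at -3.77 in the control and not well above background at the low dose. Cyp21a1 and Star had the control array as the high one, and Npy did not. Cyp21a1 and Star were named for being past the rule and lower, so that control above low dose follows from that choice. Cyp11b1 and both granins were named for being well above background in the control and not at the low dose. For them the order of those 2 arrays was fixed by that selection. How much adrenal tissue each piece held was not tested.

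The 2 probes of Cyp21a1 show how far the size of that difference depends on the probe. The reported probe (chr17:34938298-34938357 in mm9, minus strand) holds the polyadenylation signal AATAAA, in capitals, in the stretch of bases shown, and the other (chr17:34940513-34940572) does not.
Cyp21a1, reported probe: cttctgcccagtAATAAAtggtctcttcag
Cyp21a1, other probe: ctctcggtcagccctgatgctgggcatgct
The other probe was at -2.94 in the control and -3.76 and -3.45 at the low and high doses, a difference of -0.82. The signal AATAAA stands in 11.1% of all measured probes and in 7.77% of those of the 103 genes. The reported probe was also at 1.07 and 1.71 on the control and high-dose liver arrays and between -3.25 and -2.72 on the brain arrays. The mouse genome holds a near-identical pseudogene beside Cyp21a1, and the probe's reads cannot be divided between the gene and that copy.

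Cidea, Cox8b and Ucp1, genes known for brown fat, were lower, while the median of the brown fat list was not. Cidea, a protein of lipid droplets in brown fat, was at -0.28, -2.39 and -1.17 (control, low and high dose), a difference of -2.11 or 4.30-fold. Cox8b, a cytochrome oxidase subunit of brown fat and muscle, was at -0.00, -1.74 and -1.22, a difference of -1.74 or 3.35-fold. Ucp1, the uncoupling protein that makes heat, was at -2.19 in the control, not well above background at the low dose and at -3.61 at the high dose, and so at least 5.24-fold lower at the low dose. For these 3 genes the order of the arrays was control, high, low. That the control stood above the low dose follows from how they were chosen. Of 12 brown fat genes 7 were measured and 2 of these were lower (28.6%, against 0.272% of all genes). The list's median was 0.07. Its other 5 measured members, among them Ppargc1a (2.50 and 2.57) and Fabp3 (4.97 and 5.13), which the kidney tubule also expresses, differed by -0.18 to 0.16. Well above background were 8, 7 and 8 of its genes.

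All 16 white fat genes were measured, 0 passed the rule and all 16 were below control, with a median of -0.19 (47.8% of all genes were above control). Adipoq, which encodes adiponectin, was at 0.62, 0.38 and 0.01, the lipid droplet genes Cidec at 2.16, 1.54 and 1.21 and Plin1 at -1.32, -1.71 and -2.12, and Fabp4, a fatty acid carrier, at 3.80, 3.63 and 3.28. The leptin gene Lep was at -1.18, -1.24 and -1.12. Median levels of the list were 0.34, 0.07 and 0.02 on the control, low-dose and high-dose arrays. How much fat each piece held was not tested.

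**Figure D2:**
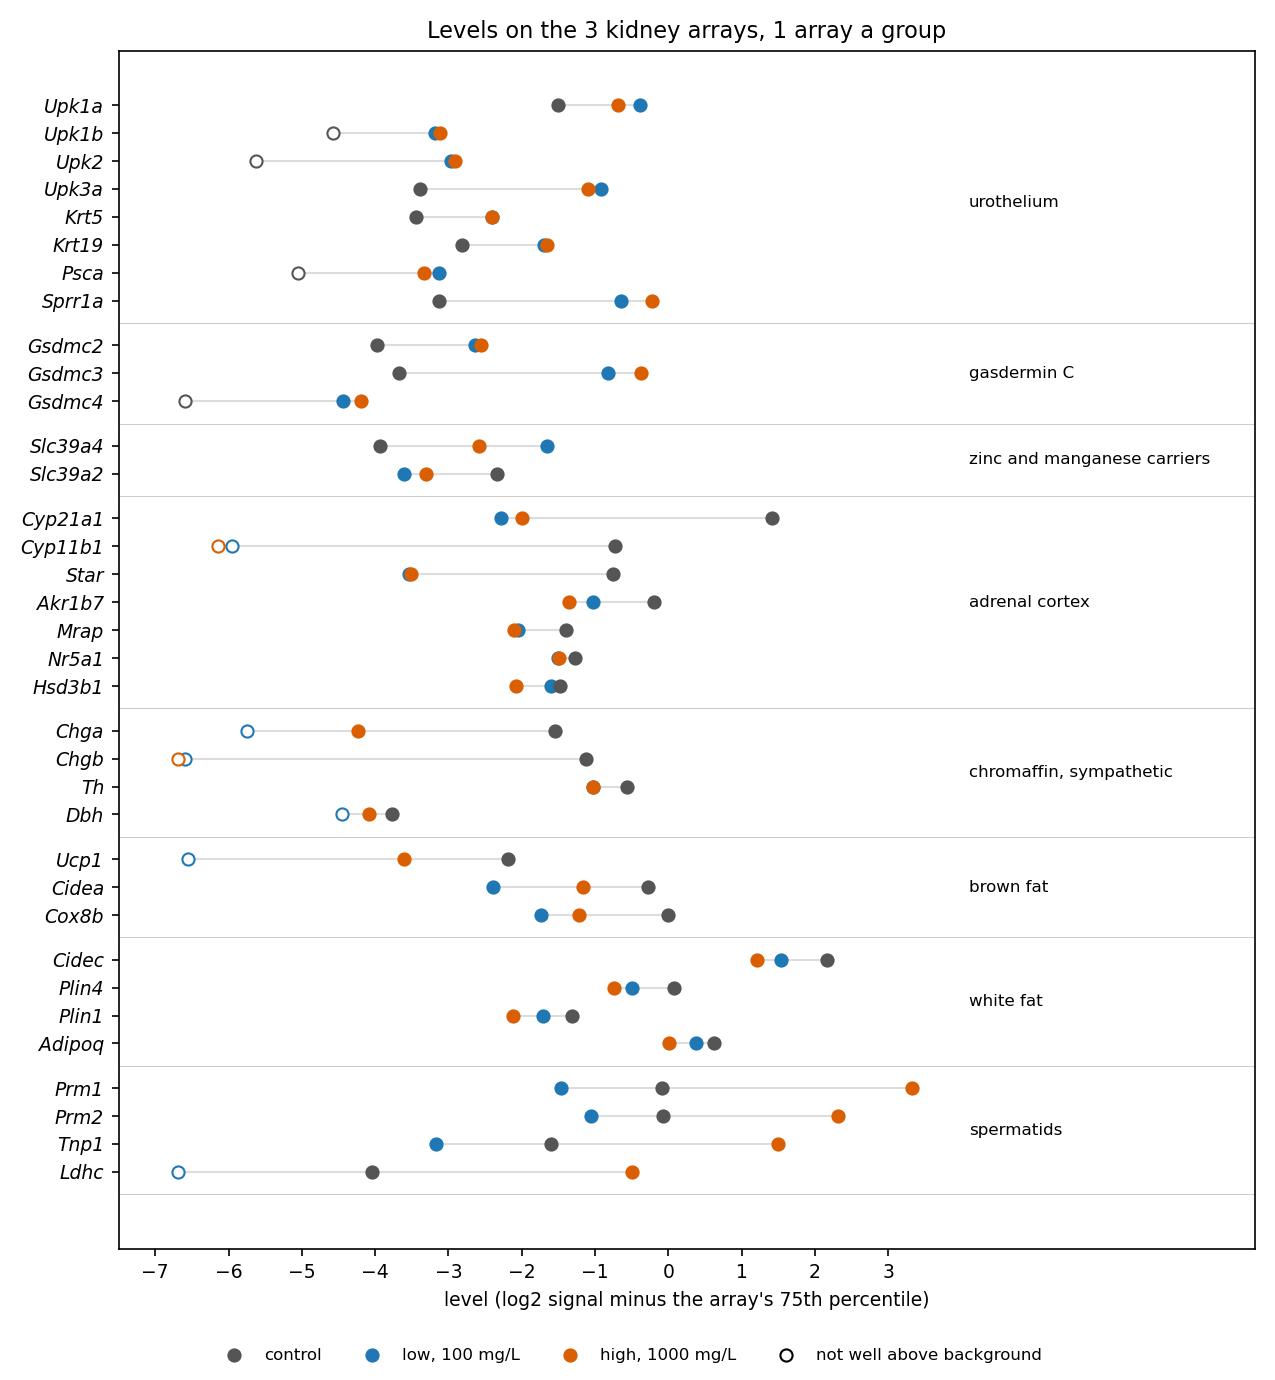
Level of each named gene (log2 signal minus the array's 75th percentile, horizontal axis) on the control (grey), low-dose (blue) and high-dose (orange) kidney arrays, 1 array each, with open circles where the probe was not well above background. The plotted genes were picked from their lists. Those of urothelium and gasdermin C have the control array as the lowest point, and those of adrenal, chromaffin cells and fat as the highest. The plotted spermatid genes have it between the low-dose and high-dose arrays. List members not plotted, among them Krt7, Npy and Lep, and the second Gsdmc probe do not follow this order.

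Genes of maturing sperm cells differed on all 3 kidney arrays. Prm1, a protamine that packs sperm DNA, was at -0.09 on the control array, -1.46 at 100 mg/L and 3.33 at 1000 mg/L, and Tnp1, which precedes the protamines, at -1.60, -3.17 and 1.49. The low-dose differences were -1.37 and -1.57, or -1.07 and -0.94 with normexp. Prm2 was at -0.07, -1.05 and 2.32. Of 12 spermatid genes 6 were measured, with a median of -0.79. Of these 2 were lower (33.3%, against 0.272% of all genes) and 0 above control (against 47.8%). Well above background were 9, 6 and 11 of the 12 genes, with median levels of -3.89, -4.67 and -0.75. The brain arrays had Prm1 at -3.12, -3.99 and 2.42, so that the high-dose array was the high one there too. Sperm cells are not part of a kidney, and the source of this signal was not tested.

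Markers of the kidney's own cell types gave a plain picture at this dose. Across 8 lists 98 genes were measured and 0 passed the rule. The lists' medians were -0.04 for podocytes, -0.02 for the early and -0.04 for the straight proximal tubule, 0.08 for the thick ascending limb, -0.06 for the distal convoluted tubule, 0.07 for principal cells and -0.01 for intercalated cells. The medians of podocytes, the early proximal tubule and intercalated cells turn to 0.01, 0.03 and 0.04 when arrays are scaled on their medians. The largest difference outside the medulla set was that of Elf5, a factor of principal cells, at -3.51, -2.97 and -2.17, and in the straight proximal tubule that of the anion carrier Slc22a7, at 4.38, 3.91 and 2.52. Among 133 measured genes of injury and stress 0 passed the rule as well. Of 14 tubule injury genes the median was 0.02. Havcr1, the kidney injury molecule, was at -1.13 in the control, -1.65 at the low and 0.66 at the high dose, and the lipocalin Lcn2 at -1.91, -1.82 and -0.29. Clu was at 4.66 and 4.66, Spp1 at 4.49 and 4.52, Vcam1 at -0.91 and -0.76, Krt18 at 2.17 and 2.41, and Ccl2 at -1.94, -1.82 and 1.25. Krt8, Vim, Timp1, Cd44, Anxa2, Itgb6 and Cdkn1a differed by -0.17 to 0.19, and Sox9, Krt20 and Fgb were not well above background on either array.

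Stress programmes differed by small amounts. Of 24 measured target genes of NRF2, the sensor of electrophiles, 0 passed the rule and the median was 0.01, with Nqo1 at -0.72 on both arrays and 0.30 at the high dose, and Gsta2 at 0.87, 0.89 and 3.51. Of 16 cytosolic heat shock genes 0 passed, 14 were above control (87.5%, against 47.8% of all genes) and the median was 0.17. The inducible chaperones Hspa1a and Hspa1b were at 3.60 and 4.08 and at 3.03 and 3.48, and at 3.42 and 2.95 on the high-dose array, so that the low-dose array was the highest of 3. Cryab, a small heat shock protein, was at 2.78, 3.25 and 4.19. The 16 genes of endoplasmic reticulum stress had a median of 0.15, with 13 above control (81.2%, against 47.8%) and 0 past the rule. The p53 targets had a median of -0.01, with Gadd45g the outermost.

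In metabolism, sterol genes had the same sign almost throughout. Of 23 genes of the sterol list 20 were below control and the median was -0.19. The share above control was 13.0%, against 47.8% of all genes. Sqle, the epoxidase of cholesterol synthesis, was at 2.08, 1.62 and 1.61 (control, low and high dose), and Msmo1, a later enzyme of the same pathway, at 2.43, 1.94 and 1.93. The exceptions above control were Hmgcs1 (5.76 and 5.86), Tm7sf2 (1.49 and 1.53) and Ebp (5.31 and 5.33). Fatty acid synthesis genes had a median of -0.13 over 15 genes and 0 past the rule, with the desaturase Scd1 at 1.19, 0.58 and 1.07 and its regulator Srebf1 at 2.63, 2.16 and 2.28. Of 14 clock genes 0 passed. Dbp, an output gene of the clock, was at 2.99, 3.72 and 4.46 and Arntl, which drives it, at -0.85, -1.50 and -1.76. The hour at which tissue was taken is not given in the sources used here.

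**Figure D3:**
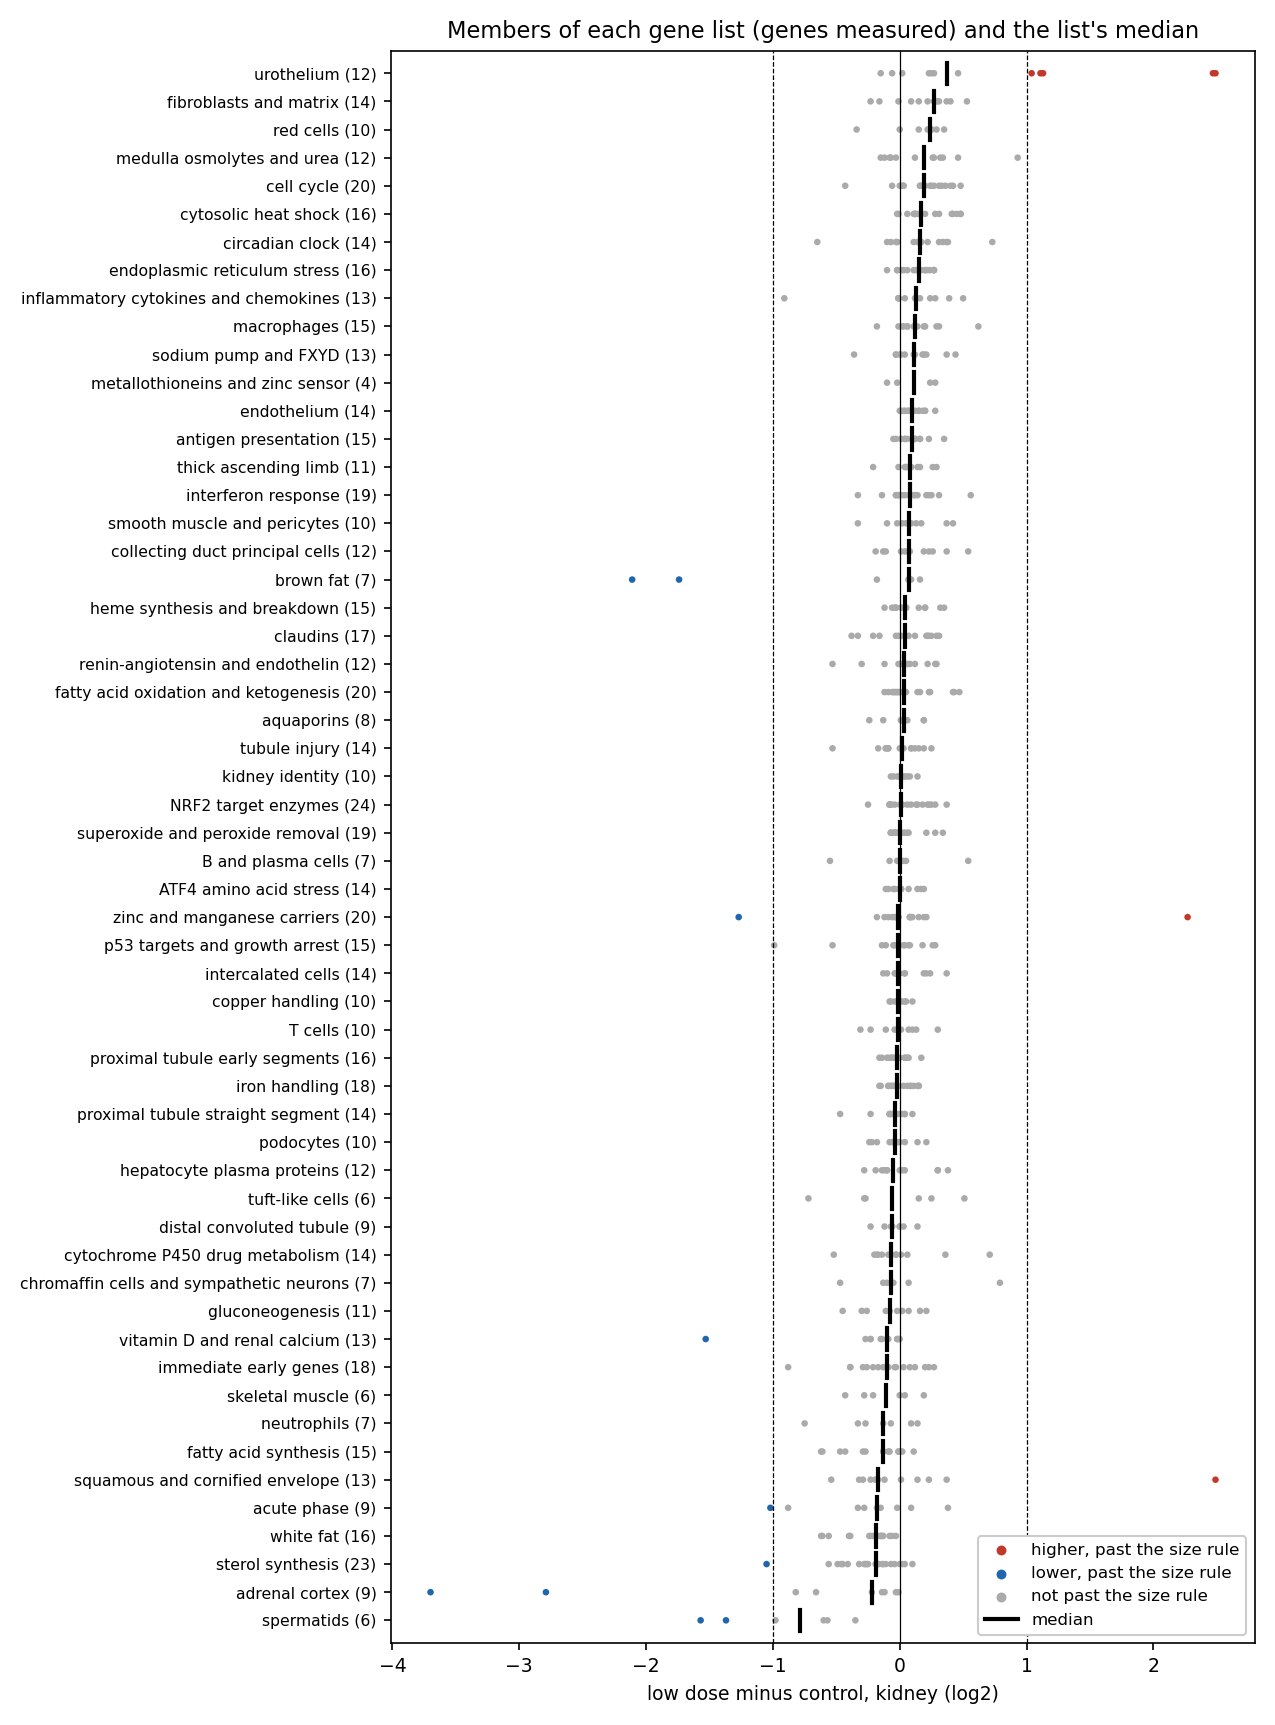
Difference between the low-dose and control kidney arrays (log2, horizontal axis) for each measured member (point) and the median (black bar) of 56 gene lists, with the number of measured genes in brackets and the size rule's limits at -1 and 1 dashed. Urothelium has the highest median, 0.37, and spermatids the lowest, -0.79, and most lists have no member past the rule.

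Immune and blood genes were mostly near control. Of 15 measured macrophage genes 13 were above control (86.7%, against 47.8% of all genes), 0 passed the rule and the median was 0.12. Trem2, a lipid receptor of macrophages and microglia that is in no list here, passed it at -4.31, -2.77 and -2.54, a difference of 1.54 (2.91-fold). The T cell co-stimulator Icos was at -4.14, -2.89 and -3.45, a difference of 1.25. With normexp these differences are 0.73 and 0.53. A transcript annotated as immunoglobulin heavy constant mu was at -1.79, -0.41 and -1.06, a difference of 1.38, and its other probe differed by 0.53. Transcripts of 2 heavy chain variable segments passed the rule in opposite directions: variable 10-1 was at -4.55 and -3.26, and not well above background at the high dose, a difference of 1.29, and variable V10-3 was at -1.77, -2.89 and -2.77, a difference of -1.12. Of 7 measured B cell and plasma cell genes 0 passed, with Jchain at -3.85 and -3.32 and Mzb1 at -2.67 and -3.22. The acute phase gene Orm1 was at -2.92, -3.94 and -2.77, a difference of -1.02 (-0.44 with normexp). It was the only 1 of 9 measured acute phase genes past the rule (11.1%, against 0.492% of all genes). Red cell genes had a median of 0.24, endothelium 0.10 and fibroblast and matrix genes 0.27, each with 0 past the rule. All 14 endothelium genes were at or above control, against 47.8% of all genes above it.

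Some named genes past the rule belong to no list. Cck, which encodes the hormone cholecystokinin, was at -0.70 in the control, 0.66 at the low and 0.54 at the high dose, a difference of 1.36. It was at 6.81 to 6.89 on the brain arrays and differed there by -0.01. The low-dose array stood above both others for Lca5l (-4.31, -2.88 and -4.25), Adamts6 (-3.41, -2.10 and -3.30), Stac3 (-3.23, -1.97 and -3.38), E2f3 (-4.09, -2.99 and -4.56) and Hip1 (-2.07, -1.05 and -2.13). The second probe of Lca5l differed by -0.70, in the other direction. Among lower genes, Nog, an inhibitor of bone morphogenetic proteins, was at -0.98, -2.25 and -2.65, Zfp169 at -1.56, -3.32 and -3.42, Cela2a, a pancreatic elastase, at -1.94, -3.29 and -3.62, and Isoc2b at 0.44, -0.58 and -0.78. The remaining lower genes with names include 3 olfactory receptors (Olfr103, Olfr411 and Olfr1419), at -1.04 to -1.40, and Elapor2, Rhbdl3, Ecrg4, Kif26a, Plk4 and Kcnk3, at -1.06 to -1.37. With normexp only Cck (1.20) and Zfp169 (-1.09) of these genes keep a size of at least 1, with Nog at -0.90 and Lca5l at 0.65.

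Genes well above background on 1 of the 2 arrays add bounds. At the low dose alone 458 genes were well above background, and 150 of them were at least 2-fold higher. The largest bounds among named genes were those of Pou2f3, the master factor of tuft cells (at least 7.60-fold, -5.17 and -1.92), Ms4a19 (7.52), Wnt10b (7.39), Cga (7.37) and Fam228a (7.31). On the high-dose array Pou2f3 was at -3.89, and the other 4 were not well above background. Of 12 tuft cell genes 6 were measured with 0 past the rule. In the control alone 1378 genes were well above background, and 79 were at least 2-fold lower at the low dose. Beside Cyp11b1, Chgb and Chga the largest bounds were those of Mgarp (7.27), a mitochondrial protein of steroid-making cells, and Csta1 (7.23). The low-dose array had fewer spots well above background and a higher lowest level so marked (-4.58 against -4.84), and the part of this in both counts was not tested.

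A second probe was available for 10 of the 103 genes, 11 probes in all. In 7 of the 10 genes a further probe differed in the same direction, and in 0 was it past the rule. The other probe of Plk4 was at -3.87 on both arrays and that of Kif26a at -2.25 and -2.28. For 93 genes 1 measured probe alone gives the value.

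**Figure D4:**
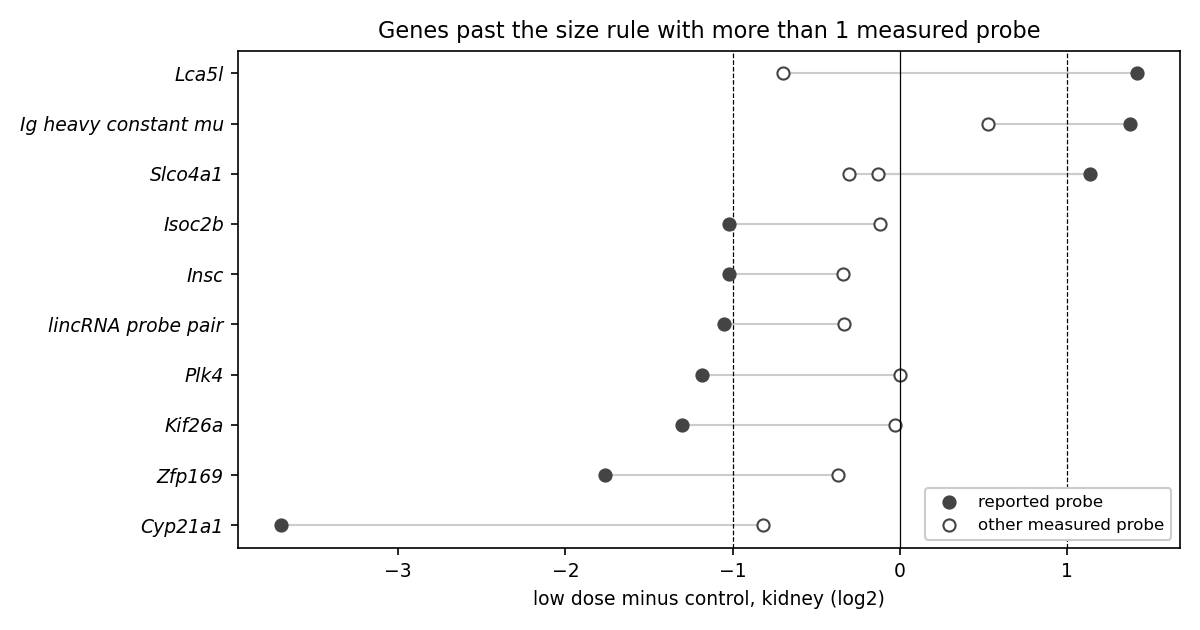
Difference between the low-dose and control kidney arrays (log2, horizontal axis) of the reported probe (filled) and of each other measured probe (open) for the 10 genes past the rule that have more than 1, with the rule's limits at -1 and 1 dashed. Every open circle lies inside the limits, the farthest being Cyp21a1 at -0.82.

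Spots that the scanner software marked as not uniform were left out, and 3 genes show what this changes. Sh3kbp1, an adaptor of receptor endocytosis, was at 8.64 on such a spot of the control array and -3.09 at the low dose, and with marked spots kept its difference is -11.74. On that spot the pixel SD was 0.772 of the mean, against 0.270 on the low-dose array. Isl1 was at 0.40 on a marked spot of the low-dose array, with a pixel SD of 2.56 times the mean, and at -6.38 in the control. Fam98b was at 0.13 at the low dose, and with its marked control spot kept its difference is -1.37.

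The same dose was also measured in brain. Over 19402 genes measured in both tissues, 84 passed the rule in kidney and 101 in brain (0.521% of these genes), and 0 passed in both, which is 0 of either list. With shares this small a count of 0 lies close to the background, and it is not read as a difference between the tissues. In brain Cyp21a1 differed by 0.09, Star by -0.44, Cox8b by -0.23 and Cidea by -0.92, and Upk3a and Gsdmc3 were not measured there. The 2 tissues have separate control arrays.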

How the data were processed

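The comparison used 2 of 8 Agilent arrays of design 074809, each hybridised with Cy3-labelled material from 50 ng of total RNA of 1 sample, per the labels' protocols. As deposited, the scanner files give intensity per spot, linear, with background subtracted and a spatial trend removed by the scanner software and no scaling across arrays, per the file headers. The software was Agilent Feature Extraction, version 12.0.3.1 (submitters' processing notes). Other deposited columns are flags (0 or 1) that mark spots above background, saturated spots and spots that are not uniform or are outliers. The deposited value table holds the same intensity divided by each array's 75th percentile over all spots (medians 0.0940, 0.0905 and 0.0936 for control, low-dose and high-dose kidney).

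Control spots and marked spots were left out, spots of a probe were averaged in log2, and each array's 75th percentile was subtracted. These percentiles, computed here over spots that are not controls, were signals of 729 for the control and 743 for the low-dose array. Spots of 203 repeated probes varied by 0.04 (SD, log2), which covers the array alone. Where a gene has several probes, the one with the highest mean over the 8 arrays reports it, and positions are in mm9. Names were updated through RefSeq accessions (GRCm38.p6) for 32994 probes, and 23611 kept the files' names. The rule for names took the 12 largest differences each way with assigned symbols, the 5 largest bounds in each direction, list members and transporters past the rule, every member of the metallothionein or injury lists, up to 4 members of other lists, genes with several probes and called neighbours. Other genes named, among them Trem2, Icos, Nrip3, marked-spot genes and the immunoglobulin transcripts, were chosen after their values were seen. A few genes this rule selects are not reported here. Members and the 58 lists were chosen with earlier results of these data known. Python 3.11.15, numpy 2.4.6, pandas 2.3.3, matplotlib 3.10.9, R 4.3.3 and limma 3.58.1 were used.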

Additional observations from a re-analysis of the deposited data

How the results depend on the processing

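With 1 array a side the size rule is a description, and the array error covers scanning and not animals, pieces of tissue or RNA preparation. No paired analysis was possible because each group has 1 array. The count of 46 higher and 57 lower genes became 9 and 9 with normexp background correction and quantile normalization, with 17 of the 18 genes among the 103. It became 114 and 95 with no filter on dim probes, 2 and 1 (Cck, Slco4a1 and Isoc2b) with a stricter one, and 15 and 13 at a difference of at least 1.5. Median scaling (52 and 45), quantile normalization (47 and 44), the percentile over detected probes (45 and 57) and the deposited table (45 and 57) stayed within 1.5 times. So did kept marked spots (46 and 59), the mean of probes (46 and 55) and size alone (48 and 57). Requiring every measured probe to pass gave 43 and 50. Those are the 93 genes with 1 measured probe, which meet this setting by definition. All 10 genes with a further measured probe failed it. None of the 58 named genes past the rule changed sign under the 8 settings that give each a value (median scaling, quantile, detected percentile, normexp, deposited table, no filter, kept marked spots and mean of probes), nor did the 3 that the stricter filter leaves. The 58 were picked for a difference of at least 1. Rescaling, the deposited table, no filter and kept marked spots left all 58 values much as they were. Those settings could therefore hardly turn a sign, and only normexp and the mean of probes moved these values much. With normexp 14 of the 58 keep a size of at least 1 and 44 fall below it. It took Gsdmc3 to 1.90, Sprr1a to 1.70, Upk3a to 1.68, Slc39a4 to 1.28, Star to -1.87 and Cyp21a1 to -3.03, and below the rule's size Slc39a2 to -0.64, Krt19 to 0.75, Krt5 to 0.54, Gsdmc2 to 0.67, Trem2 to 0.73, Icos to 0.53, Tnp1 to -0.94 and Nog to -0.90. Normexp was run with an offset of 50 added to every signal, which by construction shrinks differences between dim signals. How much of the change this makes up was not tested. The mean of probes gave -2.26 for Cyp21a1 and 0.24 for Slco4a1. Median scaling turned the sign of 10 lists, all with medians within 0.05 of 0, and moved the median of all genes from -0.01 to 0.04.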
